A study of Homo sapiens with 33 samples.

Results

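The nuclear-encoded subunits of the respiratory chain were followed through all-trans retinoic acid (ATRA) treatment of NB4, an established human acute promyelocytic leukaemia cell line whose cells mature along the granulocyte lineage when given ATRA. The members were every protein-coding gene whose symbol begins with NDUFA, NDUFB, NDUFC, NDUFS or NDUFV (assembly factors named NDUFAF left out), SDHA to SDHD, the UQCR genes, CYC1, COX4 to COX8, and the ATP5 genes. This gave 92 of 85160 genes: 39 of complex I, 4 of complex II, 10 of complex III, 17 of complex IV, 20 of complex V (the ATP synthase, counted here with the chain) and 2 read-through models, ATP5MF-PTCD1 and NDUFC2-KCTD14. ATP5S was placed in complex V by its symbol only, and its current symbol is DMAC2L. The 33 libraries fall into 11 groups of 3, with cells given 1 µM ATRA for 4, 12, 24, 72 or 120 h, cells given the vehicle DMSO for the same times, and untreated cells at 0 h. Fresh medium with drug or vehicle was added on day 3, per the labels' protocols, and all groups share the same line, so the results are those of NB4 cells only.

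Complexes I to IV pass electrons from NADH and succinate to oxygen. Complexes I, III and IV also pump protons out of the mitochondrial matrix, and complex V makes ATP as the protons return. Except for complex II, which is wholly nuclear-encoded, each complex joins subunits made from nuclear genes to a few made inside the mitochondrion from mitochondrial DNA. In the bone marrow, precursors of neutrophils are rich in mitochondria, and mature neutrophils have few and draw on glycolysis. Bulk RNA gives the share of a gene among all transcripts, so fewer mitochondria per cell and less of each transcript per mitochondrion cannot be told apart here.

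Total counts ran between 18341456 and 33490654 per library (median 25927472), and the members took 0.825% of all counts. Of the 92 members, 85 had enough counts to be tested, among 22971 tested genes. The promyelocyte gene MPO averaged 422.5 CPM (counts scaled to library size) over the 3 libraries with 120 h of ATRA and 9614 CPM over those with DMSO. Of the 7 tested genes of the promyelocyte list, 4 were lower and 2 higher: SPI1 averaged 344.4 CPM with ATRA and 69.11 CPM with DMSO, and CEBPE 467 CPM with ATRA and 59.29 CPM with DMSO. The erythroid genes HBB and ALAS2 were at 0 in both. Of the monocyte or macrophage list, all 5 tested genes were higher with ATRA at 120 h, and their summed level lay between 543 and 640 CPM in ATRA libraries, against 42.3 to 48.6 CPM in DMSO libraries. Whether cells of differing maturity within a culture had a part in the values below was not tested. In members' summed level, with the read-through models left out, 2 libraries stood apart from their replicates. Replicate 5 of ATRA at 120 h had 5793 CPM, against 7031 and 6989 CPM in replicates 2 and 4. Replicate 5 of DMSO at 4 h had 7064 CPM, against 7870 and 8338 CPM. All libraries at 0, 4 and 12 h were sequenced in lane 4, and from 24 h on replicate 2 was in lane 2 and replicates 4 and 5 were in lane 3.

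Gene overlap limits some members. Fragments that overlap exons of several genes on the same strand were counted for each of them, and 27 of the 85 tested members have such a neighbour holding over 10% of their own counts. The other 58 members gave like shares at 24, 72 and 120 h: 30 were higher and 1 lower with ATRA at 24 h, 9 higher and 32 lower at 72 h, and 7 higher and 36 lower at 120 h. For members described with their library values, such neighbours are named beside them. Named pseudogenes exist for 50 of the 92 members; those of SDHA held counts equal to 21.7% of its own.

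The subunits as a group were higher with ATRA than with DMSO at 24 h and lower at 72 h and 120 h. At 24 h, 40 of 85 tested members were higher and 2 were lower (edgeR quasi-likelihood test, Benjamini-Hochberg adjusted p below 0.05 over all genes), while 17.4% of all tested genes were higher and 15.8% lower. By 72 h, 12 were higher and 47 lower, against 32.1% and 32.6% of all tested genes, and at 120 h 12 were higher and 52 lower, against 34.9% and 35.6%. The median log2 change of the members was 0.17 at 24 h, -0.19 at 72 h and -0.36 at 120 h, where the median of all tested genes was 0.02, -0.01 and -0.03. Most individual changes were small: at 120 h, 7 members called lower and 2 called higher passed 2-fold.

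The earlier times showed little. At 4 h, 3 members were higher and 0 lower, against 12.3% and 12.4% of all tested genes. At an unadjusted p below 0.05, edgeR had 17 higher and 1 lower, and DESeq2 called 3 higher and 1 lower after adjustment. The members called at 4 h included NDUFA2 (log2 change 0.31 ± 0.09, SE), an accessory subunit of complex I, and COX7A2 (0.29 ± 0.10), a small subunit of complex IV. At 12 h, 10 were higher and 6 lower, against 20% and 18.7%, while DESeq2 called 9 in each direction. The 4 h count rested on single libraries: it was 1 without replicate 5 of either DMSO or ATRA, 6 without replicate 2 of DMSO and 23 without replicate 4 of DMSO. At 12 h the higher count was 6 without replicate 4 of ATRA or replicate 2 of DMSO, and the lower count was 3 without replicate 2 or 5 of ATRA.

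**Figure D1:**
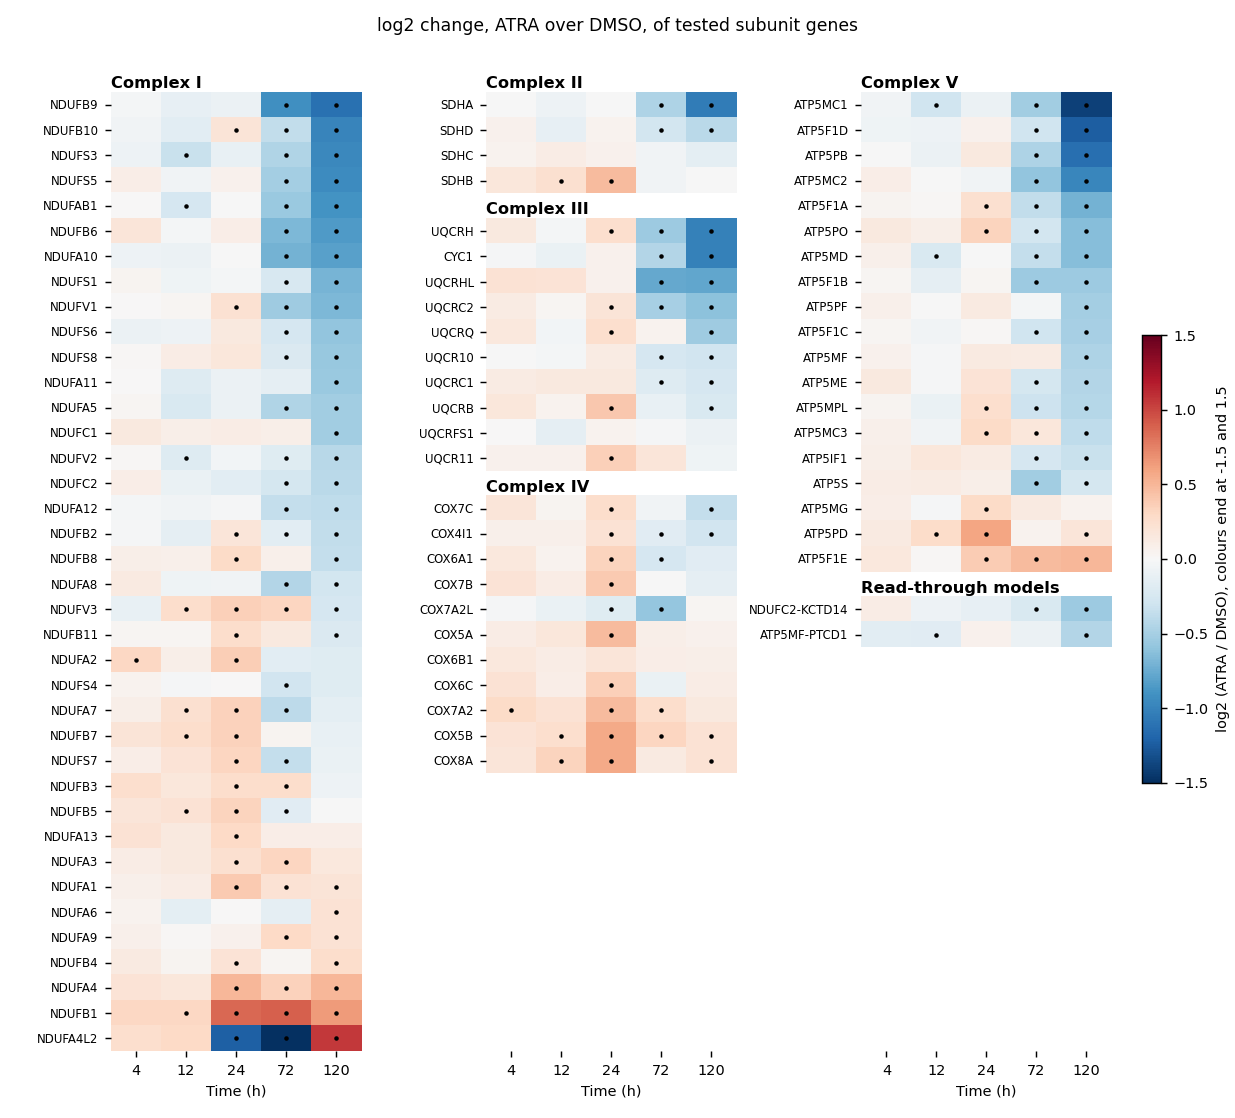
log2 change of the tested members (1 is not shown), ATRA over DMSO, at 4, 12, 24, 72 and 120 h, one block per complex with members ordered by their value at 120 h; red is higher, blue is lower and a dot marks an adjusted p below 0.05. Red cells prevail at 24 h in complex IV and in parts of complex I, and blue cells at 72 h and 120 h in complexes I, III and V.

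The members are transcribed at high levels, which makes small changes easier to call, so they were also set beside protein-coding genes of like level. Among 8245 other protein-coding genes with an average of at least 4 on the log2 CPM scale, 21.6% were higher and 24.8% lower at 24 h, 36.6% and 43.0% at 72 h, and 39.4% and 46.6% at 120 h. Of the 81 members at that level, 39 were higher and 1 lower at 24 h, 11 and 44 at 72 h, and 10 and 50 at 120 h. This comparison was chosen after the values were seen.

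Summed over its members, each complex had its own course. Complex IV stood at 1453 ± 47.9 CPM after 24 h of ATRA, against 1131 ± 28.3 CPM in DMSO (SD, n = 3 each), and at 120 h at 1117 ± 145 CPM with ATRA, against 1146 ± 70.1 CPM in DMSO. The sum of complex V was 3432 ± 76.2 CPM with ATRA and 3097 ± 48.2 CPM with DMSO at 24 h; at 120 h it was 2037 ± 234 CPM with ATRA and 2955 ± 146 CPM with DMSO. Complex II had 324 ± 27.6 CPM with ATRA and 483 ± 15.0 CPM with DMSO at 120 h, and complex III had 690 ± 74.3 CPM with ATRA and 969 ± 40.6 CPM with DMSO. At 120 h the 3 ATRA libraries lay below all 3 DMSO libraries for complexes II, III and V, and the groups overlapped for complex IV. Untreated cells had 9033 ± 78.2 CPM over all members but the read-through models, above every DMSO group mean.

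**Figure D2:**
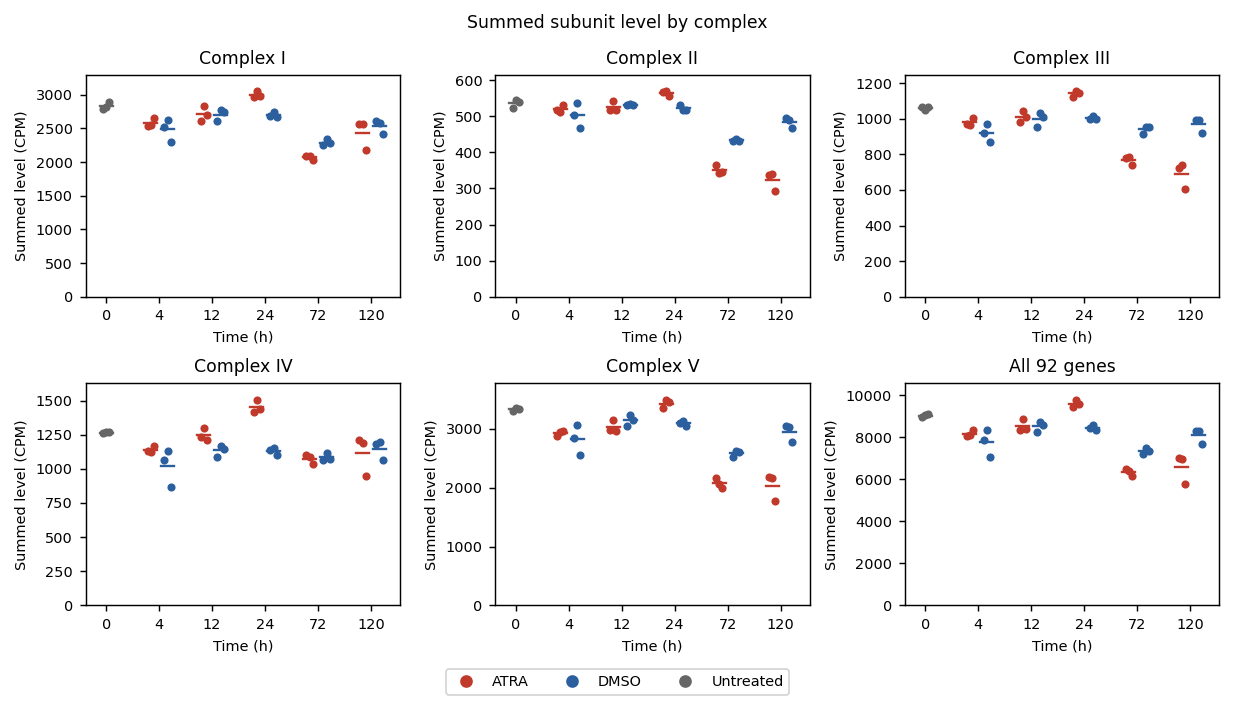
Summed level of the members in CPM (vertical axis, from 0) by time in hours, one panel per complex and one for their total. The total, headed all 92 genes, leaves out the read-through models. Points are libraries, lines are group means, ATRA red, DMSO blue, untreated grey. In complexes II, III and V the ATRA points lie above the DMSO points at 24 h and below them at 72 h and 120 h, while in complex IV they overlap at 120 h.

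Complex I, which takes electrons from NADH, had 18 of 39 tested members higher and 1 lower at 24 h, 8 higher and 22 lower at 72 h, and again 8 higher and 22 lower at 120 h. Of its 7 core subunits, which carry the flavin, the iron-sulphur clusters and the ubiquinone site, 5 were lower at 120 h: NDUFS1, NDUFS3, NDUFS8, NDUFV1 and NDUFV2. NDUFS3 had 66.1, 61.8 and 53.2 CPM in ATRA libraries at 120 h, against 126.6, 124.6 and 103.9 CPM in DMSO libraries, a log2 change of -0.97 ± 0.07 (adjusted p = 1.91e-15, edgeR); it shares exons with FAM180B and PTPMT1. At 12 h NDUFS3 was lower (-0.33 ± 0.07), and at 24 h it was not called (-0.11 ± 0.07).

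Accessory subunits of complex I went both ways. NDUFB9, a membrane-arm subunit, had the largest fall of the complex at 120 h, with 32.02, 31.17 and 24.36 CPM in ATRA libraries and 69.1, 61.7 and 59.3 CPM in DMSO libraries (-1.12 ± 0.08, adjusted p = 4.34e-15, edgeR). No ATRA library reached the lowest DMSO library. NDUFA10, a matrix-facing accessory subunit, fell at 72 h (-0.71 ± 0.06) and at 120 h (-0.81 ± 0.06), and NDUFAB1, the mitochondrial acyl carrier protein that also serves fatty acid synthesis, fell at 12 h (-0.25 ± 0.08), 72 h (-0.56 ± 0.09) and 120 h (-0.90 ± 0.09). NDUFB10, named after its values were seen, was higher at 24 h (0.19 ± 0.07) and lower at 120 h (-0.99 ± 0.08).

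NDUFB1, another small membrane-arm subunit, rose at 4 of the 5 times: it was higher at 12 h (0.32 ± 0.13), 24 h (0.86 ± 0.13), 72 h (0.90 ± 0.14) and 120 h (0.64 ± 0.13). Its 120 h libraries held 21.2, 21.9 and 20.2 CPM with ATRA, against 12.5, 14.1 and 14.1 CPM with DMSO, and the groups did not overlap. At 12 h the call was lost with DESeq2 or with its size factors. NDUFA4, counted here by its symbol with complex I although its protein is now placed in complex IV, was higher at 24 h (0.50 ± 0.09), 72 h (0.35 ± 0.09) and 120 h (0.49 ± 0.09), with 157, 166 and 133 CPM in ATRA libraries and 108.3, 110.1 and 104.9 CPM in DMSO libraries at 120 h. Its paralogue NDUFA4L2, known as a hypoxia-induced gene, had 562 counts over all 33 libraries and shares exons with the far more abundant R3HDM2. NDUFA4L2 stood at -1.23 ± 0.48 at 24 h, -1.63 ± 0.32 at 72 h and 1.07 ± 0.36 at 120 h.

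Complex II, succinate dehydrogenase, oxidises succinate within the citric acid cycle, and its 4 genes did not move together. SDHA, the flavin-bearing catalytic subunit, had 128.0, 120.7 and 108.9 CPM in ATRA libraries at 120 h, against 258, 249.8 and 230.1 CPM in DMSO libraries (-1.04 ± 0.06, adjusted p = 1.06e-18, edgeR). At 72 h it had 159, 151 and 150 CPM with ATRA and 208.2, 219.5 and 209.2 CPM with DMSO (-0.47 ± 0.06), and at neither time did the groups overlap. The other catalytic subunit, SDHB, which holds the iron-sulphur clusters, was higher at 12 h (0.24 ± 0.07) and 24 h (0.47 ± 0.07): it had 126, 129 and 131 CPM in ATRA libraries and 91.1, 92.7 and 95.1 CPM in DMSO libraries at 24 h. At 120 h SDHB had 89.3, 89.8 and 68.6 CPM with ATRA and 85.7, 84.2 and 78.6 CPM with DMSO (-0.01 ± 0.07), with overlapping groups. Of the membrane anchors, SDHD fell at 72 h (-0.28 ± 0.07) and 120 h (-0.40 ± 0.07), and SDHC was called at no time (-0.14 ± 0.07 at 120 h). SDHA shares a little exon length with PDCD6 besides its pseudogenes, and SDHD shares exons with NKAPD1.

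Complex III, which passes electrons from ubiquinol to cytochrome c, had 5 of 10 members higher and 0 lower at 24 h, 0 higher and 6 lower at 72 h, and 0 higher and 8 lower at 120 h. CYC1, the gene of cytochrome c1, had 70.1, 67.9 and 53.1 CPM in ATRA libraries at 120 h, against 133, 136 and 116 CPM in DMSO libraries (-1.01 ± 0.08, adjusted p = 3.03e-14, edgeR). UQCRH, the hinge protein that helps dock cytochrome c, was higher at 24 h (0.25 ± 0.08), with 158, 170.0 and 170.1 CPM in ATRA libraries and 146, 139 and 134 CPM in DMSO libraries. It was lower at 72 h (-0.54 ± 0.08) and had 72.4, 81.8 and 63.2 CPM with ATRA and 144, 149 and 146 CPM with DMSO at 120 h (-1.01 ± 0.08, adjusted p = 1.44e-14, edgeR). UQCRHL, an intronless copy of UQCRH, shares exons with FLJ37453, whose counts equal 86.1% of those of UQCRHL. UQCRHL went down by 0.77 and 0.78 at 72 h and 120 h on that scale (SE 0.13 and 0.14). Its reads may not be separable from those of FLJ37453 or of UQCRH. UQCRC2, a core protein, fell by 0.50 ± 0.07 at 72 h and 0.62 ± 0.07 at 120 h. UQCRFS1, the Rieske iron-sulphur protein, was called at no time, with 73.8, 72.9 and 58.2 CPM in ATRA libraries and 74.7, 73.5 and 69.8 CPM in DMSO libraries at 120 h.

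Complex IV, cytochrome c oxidase, had the largest share of members higher at 24 h among the 5 complexes: 9 of 11 tested were higher and 1 lower, with a median log2 change of 0.36. At 72 h 2 were higher and 3 lower, and at 120 h 2 were higher and 2 lower, with a median of 0.07. COX5B had 95.5, 112.4 and 102.0 CPM with ATRA and 67.7, 76.6 and 63.8 CPM with DMSO at 24 h (0.57 ± 0.09, adjusted p = 6.96e-07, edgeR). COX5B, which binds a zinc ion on the matrix side, was also higher at 12 h (0.25 ± 0.09), 72 h (0.33 ± 0.09) and 120 h (0.21 ± 0.09). COX8A was higher at 12 h (0.33 ± 0.08), 24 h (0.57 ± 0.08) and 120 h (0.22 ± 0.08), but it shares exons with NAA40 and OTUB1. At 120 h the ATRA and DMSO libraries of COX5B and of COX8A overlapped, and both calls were lost within lane 3. COX4I1, the largest nuclear-encoded subunit, was higher at 24 h (0.22 ± 0.07) and lower at 72 h (-0.17 ± 0.07) and 120 h (-0.29 ± 0.07), and COX7C, a small subunit, was higher at 24 h (0.27 ± 0.08) and lower at 120 h (-0.36 ± 0.08). COX6B1 was called at no time.

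Several subunits of complex IV have a tissue-specific paralogue, and in these cells the ubiquitous form held nearly all counts. Over 33 libraries, COX4I2 had 2 counts, COX6A2 5, COX6B2 16, COX7A1 2, COX7B2 0 and COX8C 37, and none was tested. Their partners were abundant: COX4I1 averaged 171 CPM, COX6A1 154 CPM and COX8A 176 CPM over all libraries. With ATRA the ubiquitous forms COX6A1 and COX7B were higher at 24 h (0.33 ± 0.09 and 0.40 ± 0.10), as was COX7A2 (0.48 ± 0.10), and none of the 3 was called at 120 h; COX6A1 was lower at 72 h (-0.26 ± 0.09). COX7A2L, which takes part in joining complexes III and IV into supercomplexes, ran another course: it was lower at 24 h (-0.19 ± 0.07) and had 35.9, 35.8 and 35.5 CPM with ATRA and 58.1, 52.5 and 49.3 CPM with DMSO at 72 h (-0.58 ± 0.07, adjusted p = 2.14e-09, edgeR). By 120 h it had 52.1, 51.3 and 45.7 CPM with ATRA and 48.1, 50.1 and 48.3 CPM with DMSO (0.03 ± 0.07), and the difference between the ATRA effects at 120 h and 72 h was 0.60 ± 0.10 (adjusted p = 3.19e-06, edgeR).

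Most of complex V fell late. Of 19 tested members 7 were higher and 0 lower at 24 h, 2 higher and 13 lower at 72 h, and 2 higher and 16 lower at 120 h, when the median log2 change was -0.50. The lower counts include ATP5S, now DMAC2L, at 72 h (-0.52) and 120 h (-0.27). In the F1 head, the catalytic subunit ATP5F1B, the most abundant member, had 573, 548 and 526 CPM with ATRA and 777, 812 and 810.2 CPM with DMSO at 72 h (-0.54 ± 0.07), and it stood at -0.55 ± 0.07 at 120 h; a small nucleolar RNA gene lies within its exons. ATP5F1D, the delta subunit of the central stalk, had 16.9, 19.4 and 14.1 CPM with ATRA and 40.7, 43.1 and 34.8 CPM with DMSO at 120 h (-1.23 ± 0.11, adjusted p = 7.56e-13, edgeR), and it shares exons with MIDN. The epsilon subunit of the same stalk, ATP5F1E, moved the other way, with 170.3, 178.6 and 135.8 CPM with ATRA and 118, 118 and 108 CPM with DMSO at 120 h (0.50 ± 0.09, adjusted p = 8.42e-06, edgeR). For ATP5F1B, ATP5F1D and ATP5F1E the groups did not overlap at 120 h.

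The c ring, the rotor in the membrane, is made of a single mature protein encoded by 3 genes that differ in their import sequence. ATP5MC1 had 30.3, 29.8 and 20.2 CPM with ATRA and 76.4, 71.8 and 63.5 CPM with DMSO at 120 h, the largest fall of any member (-1.40 ± 0.11, adjusted p = 5.17e-15, edgeR). ATP5MC1 was lower at 12 h (-0.30 ± 0.10), where the ATRA and DMSO libraries overlapped, and was not called at 24 h (-0.08 ± 0.10). At 72 h it had 34.8, 27.1 and 26.9 CPM with ATRA and 43.2, 42.3 and 42.0 CPM with DMSO (-0.53 ± 0.10). ATP5MC2 and ATP5MC3, named here after their values were seen, changed by -0.98 ± 0.08 and -0.38 ± 0.07 at 120 h; ATP5MC3 was higher at 24 h (0.29 ± 0.07) and 72 h (0.17 ± 0.07).

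In the peripheral stalk, which holds the head still, ATP5PB had 92.3, 82.5 and 76.7 CPM with ATRA and 187, 187 and 179 CPM with DMSO at 120 h (-1.14 ± 0.07, adjusted p = 5.6e-18, edgeR). Of the other stalk genes, ATP5PF and ATP5PO were lower at 120 h, and ATP5PD was higher at 12 h (0.27 ± 0.08), 24 h (0.59 ± 0.08) and 120 h (0.19 ± 0.08). At 24 h ATP5PD had 59.9, 63.1 and 63.0 CPM with ATRA and 43.8, 41.0 and 39.1 CPM with DMSO, and at 120 h the groups overlapped and the call was lost within lane 3. ATP5IF1, the inhibitor that stops the enzyme from running backwards, was lower at 72 h (-0.26 ± 0.09) and 120 h (-0.34 ± 0.09). At 120 h ATP5IF1 had 35.2, 36.6 and 27.4 CPM with ATRA and 45.6, 40.9 and 38.7 CPM with DMSO.

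**Figure D3:**
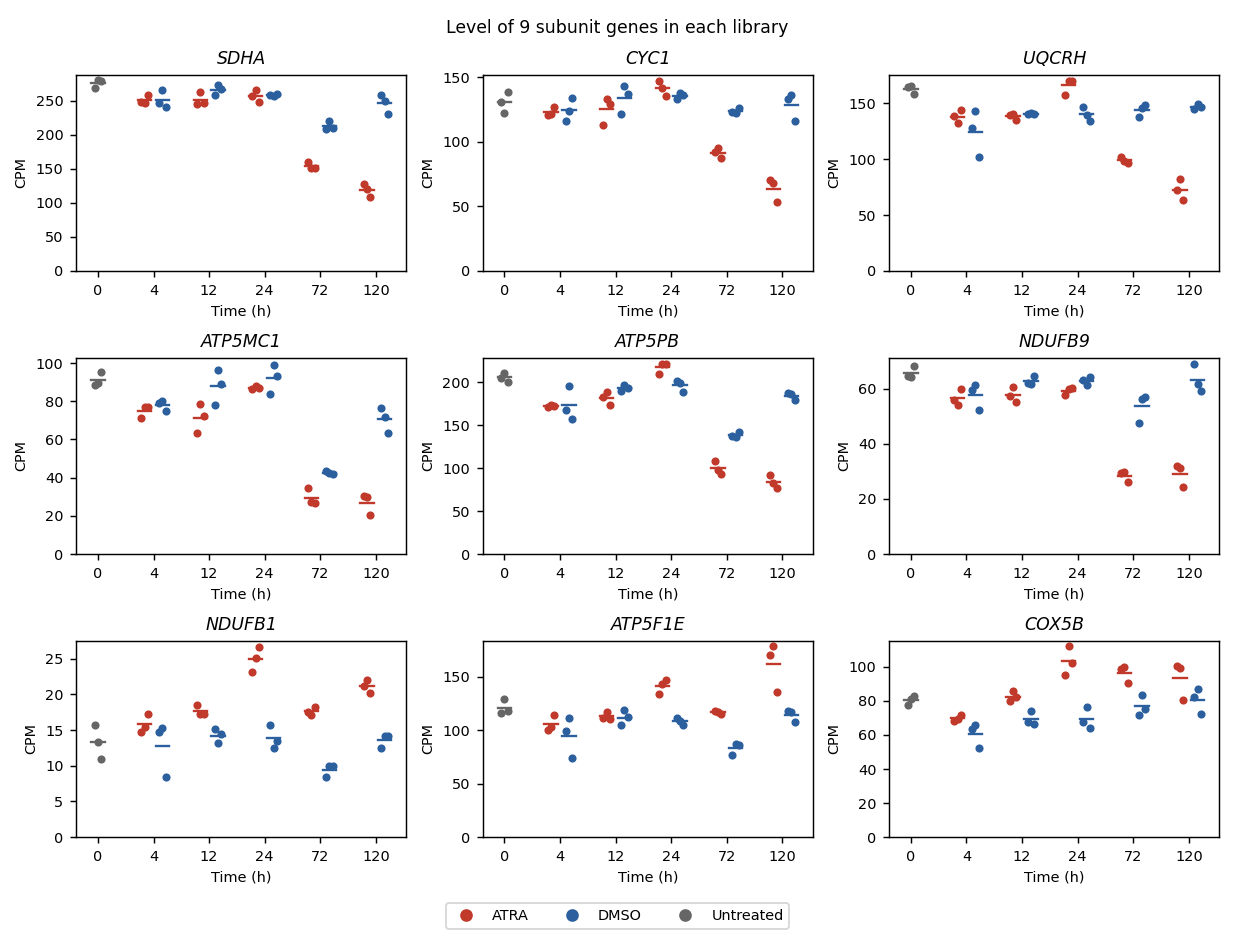
Level in CPM (vertical axis, from 0) of SDHA, CYC1, UQCRH, ATP5MC1, ATP5PB, NDUFB9, NDUFB1, ATP5F1E and COX5B in each library by time in hours (ATRA red, DMSO blue, untreated grey; lines are group means). SDHA, CYC1, UQCRH, ATP5MC1, ATP5PB and NDUFB9 lie below DMSO in all ATRA libraries at 72 h and 120 h, and NDUFB1 and ATP5F1E lie above it at both times.

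Counts at 120 h depended on replicate 5 of ATRA. Without it 19 members were higher and the median log2 change was -0.24; the higher count was 7 without replicate 4 of ATRA and 6 without replicate 4 of DMSO, and the lower count lay between 46 and 56 over all such fits.

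The change of direction between 24 h and 72 h was tested directly as a difference of ATRA effects. From 24 h to 72 h the effect became more negative in 49 of 85 members and more positive in 2, against 24.5% and 21.5% of all tested genes. In 13 members that were higher at 24 h and lower at 72 h, the difference itself was called: NDUFA7, NDUFB2, NDUFB5, NDUFB10, NDUFS7, NDUFV1, UQCRC2, UQCRH, COX4I1, COX6A1, ATP5F1A, ATP5MPL and ATP5PO, with differences between -0.79 and -0.34. Of these, NDUFA7, NDUFB2, COX6A1 and ATP5PO share exons with AC010323.1, ADCK2, AL021546.1 and AP000311.1, in that order. From 72 h to 120 h the ATRA effect fell in 29 members and rose in 4, against 21.8% and 17.5% (24 and 7 with RLE size factors), and ATP5F1D had the largest further fall (-0.93 ± 0.15), then ATP5MC1 (-0.87 ± 0.15). DESeq2 gave 24 and 8, and 11 rose without replicate 5 of ATRA at 120 h. In the earlier steps few differences were called: between 4 h and 12 h the effect rose in 1 member, NDUFV3, and fell in 0, against 8.14% and 5.90%, and between 12 h and 24 h it rose in 4 and fell in 0, against 2.50% and 4.40%. At an unadjusted p below 0.05, edgeR had 1 rise and 4 falls in the first step and 32 rises and 1 fall in the second, and DESeq2 at its adjusted threshold called 1 rise and 1 fall in the first and 5 rises and 0 falls in the second. Without replicate 4 of DMSO at 4 h the first step had 8 falls, and the 4 rises of the second step were 0 to 2 without any of 8 single libraries. The 4 that rose (NDUFB2, NDUFB10, ATP5MC3 and ATP5MG, named after their values were seen) had differences of 0.30 to 0.35.

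The vehicle cultures moved as well. In DMSO, 60 members were lower and 3 higher at 72 h than in untreated cells, against 24.7% and 26.9% of all tested genes, and 51 were lower and 10 higher at 72 h than at 24 h, against 25.5% and 26.2%. From 72 h to 120 h, 44 rose and 9 fell, against 22.1% and 18.7%. NDUFA4L2, a low-count gene, had the largest rise in the step to 72 h (2.22 ± 0.34) and the largest fall in the step to 120 h (-1.94 ± 0.33). ATP5MC1 had the largest fall in the first step and the largest rise in the second: it had 43.2, 42.3 and 42.0 CPM at 72 h, against 83.6, 99.0 and 93.5 CPM at 24 h (-1.12 ± 0.10, adjusted p = 4.82e-12, edgeR), and it rose again by 0.73 ± 0.10 at 120 h. At 4 h in DMSO 43 were lower and 1 higher than in untreated cells, against 15.7% in each direction, but the lower count was 23 without replicate 5 of DMSO at 4 h. At 12 h 4 were lower and 1 higher, against 11.5% and 11.2%, at 24 h 6 were lower and 0 higher, against 9.24% and 9.87%, and at 120 h 25 were lower and 0 higher, against 9.59% and 12.3%. At an unadjusted p below 0.05, edgeR had 1 higher at 24 h and 0 at 120 h, and DESeq2 called 0 at both. The 120 h count was 4 without replicate 5 of DMSO and 11 to 15 without replicate 4 of DMSO or any 1 untreated library. From 24 h on, lane and time cannot be told apart in comparisons with untreated cells.

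Because DMSO was low at 72 h, the ATRA cells at 72 h were also set against a control averaged from the 24 h and 120 h DMSO groups. Then 58 members were lower and 5 higher. With that control ATP5F1E stood at 0.07 in place of 0.48, NDUFA4 at 0.07 in place of 0.35 and COX7A2 at 0.03 in place of 0.27, and none of the 3 was called. NDUFA4L2 turned to 0.45 with that control. Not all members were low in DMSO at 72 h. Of those whose effect turned after 24 h, DMSO was called higher at 72 h than at 120 h in NDUFA7, NDUFS7, NDUFV1 and UQCRC2. It was called lower at 72 h in NDUFB2, NDUFB10 and ATP5F1A. NDUFS7 averaged 52.84 CPM with ATRA and 67.51 CPM with DMSO at 72 h, against 57.54 and 50.92 CPM in DMSO at 24 h and 120 h. ATP5MC3 and NDUFV3, called higher against DMSO at 72 h, did not exceed the DMSO means at 24 h and 120 h. ATP5MC3 averaged 131.2 CPM with ATRA at 72 h, against 187.2 and 168.4 CPM in DMSO at 24 h and 120 h. NDUFV3 averaged 58.13 ± 3.35 CPM with ATRA, against 63.03 ± 2.29 and 58.98 ± 2.61 CPM in DMSO (SD), so its 120 h gap was within the spread.

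Promoters were searched for motifs known from respiratory genes, since many members moved together. Of the 92 members, 71 matched a 300-base promoter window (250 bases before and 50 after the gene start) in RefSeq's table on GRCh38.p14. Either strand was searched for the NRF1 core GCGCATGC, the ETS core CCGGAAG (bound by GABP), the YY1 core AAGATGGC and the E-box CACGTG, which do not contain each other. An exact NRF1 match stood in 14 of the 71 members (19.7%), against 4.90% of 14791 protein-coding genes and 3.68% of all 27305 genes. The ETS letters stood in 21 (29.6%, against 16.7% and 12.2%), the YY1 letters in 12 (16.9%, against 4.74% and 3.52%) and the E-box in 7 (9.86%, against 11% and 8.77%). The NRF1 match was found in 8 of 40 members lower with ATRA at 120 h, in 3 of 9 members higher and in 3 of 18 not called. The ETS match was found in 10 of 40, 4 of 9 and 7 of 18, the YY1 match in 5 of 40, 2 of 9 and 5 of 18, and the E-box in 4 of 40, 0 of 9 and 3 of 18, in the same order. Shown here are the 250 bases before the start, with matches in capitals, for 2 members that were higher at 120 h and 2 that were lower.
COX5B, higher, plus strand, chr2:97645812-97646061: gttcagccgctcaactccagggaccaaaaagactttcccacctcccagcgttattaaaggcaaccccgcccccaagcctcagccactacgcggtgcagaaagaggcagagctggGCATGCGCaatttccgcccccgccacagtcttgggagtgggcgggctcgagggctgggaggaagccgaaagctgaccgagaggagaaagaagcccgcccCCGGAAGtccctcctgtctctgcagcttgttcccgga
ATP5PD, higher, minus strand, chr17:75046970-75047219: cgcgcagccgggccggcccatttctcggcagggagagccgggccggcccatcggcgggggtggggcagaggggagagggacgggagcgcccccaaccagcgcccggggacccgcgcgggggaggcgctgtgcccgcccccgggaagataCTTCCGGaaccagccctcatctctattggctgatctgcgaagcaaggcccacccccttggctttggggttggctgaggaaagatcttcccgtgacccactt
SDHD, lower, plus strand, chr11:112086623-112086872: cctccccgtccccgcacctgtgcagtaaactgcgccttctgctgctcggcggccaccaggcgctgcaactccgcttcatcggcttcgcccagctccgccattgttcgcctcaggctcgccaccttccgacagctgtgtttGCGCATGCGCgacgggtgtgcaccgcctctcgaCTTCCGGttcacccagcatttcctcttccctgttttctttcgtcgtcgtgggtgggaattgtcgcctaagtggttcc
UQCRH, lower, plus strand, chr1:46303448-46303697: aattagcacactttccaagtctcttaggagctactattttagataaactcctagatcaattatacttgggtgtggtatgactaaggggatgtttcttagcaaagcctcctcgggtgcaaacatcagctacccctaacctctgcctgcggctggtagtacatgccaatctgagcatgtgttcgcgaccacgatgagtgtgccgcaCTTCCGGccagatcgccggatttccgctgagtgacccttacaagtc
COX5B and SDHD both hold an NRF1 and an ETS match; in SDHD the NRF1 letters of the strands overlap, and a further ETS match of COX5B crosses its start and is not in capitals. The 2 genes are called in opposite directions, higher in COX5B and lower in SDHD. ATP5PD and UQCRH both hold an ETS match and no other, and they too were called in opposite directions. For COX5B and ATP5PD the ATRA and DMSO libraries overlapped at 120 h, and both calls were lost within lane 3. Whether a match bears on direction was not tested. A match of letters does not show binding.

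Genes that make, feed or regulate the chain were counted beside the subunits from lists chosen with earlier results of these data known. Among all tested genes 20% were higher and 18.7% lower at 12 h, 17.4% and 15.8% at 24 h, 32.1% and 32.6% at 72 h, and 34.9% and 35.6% at 120 h. Of 47 assembly factors, 8 were higher and 30 lower at 120 h, with a median log2 change of -0.39, and LYRM7, a chaperone of the Rieske protein of complex III, stood at -2.56 ± 0.15. Of 78 mitochondrial ribosomal proteins, 2 were higher and 49 lower at 12 h, 6 higher and 10 lower at 24 h, and 9 higher and 64 lower at 120 h (median -0.68); MRPL3, of the large subunit, had 33.4 ± 2.03 CPM with ATRA and 153 ± 4.43 CPM with DMSO at 120 h (SD, n = 3 each). Of 14 citric acid cycle genes 7 were higher and 1 lower at 24 h, and 3 higher and 9 lower at 120 h, with fumarate hydratase FH at -1.49 ± 0.07. Of 11 coenzyme Q genes 1 was higher and 6 lower at 120 h, with COQ3 at -2.43 ± 0.15.

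The 13 mitochondrially encoded subunits had a median log2 change of 0.20 at 12 h, with 0 called by edgeR. Among all tested genes 20% were higher and 18.7% lower at 12 h, and 17.4% and 15.8% at 24 h. The shares were 32.1% and 32.6% at 72 h, and 34.9% and 35.6% at 120 h. At 24 h edgeR called 0 in either direction, also at an unadjusted p below 0.05 (DESeq2 was not counted over this list), at 72 h 2 were higher (MT-CYB and MT-CO2), and at 120 h 3 were lower: MT-CO3, MT-ATP6 and MT-ATP8. MT-CO3, a core subunit of complex IV, had 609 ± 49.9 CPM with ATRA and 1475 ± 250 CPM with DMSO at 120 h (-1.28 ± 0.14, adjusted p = 2.52e-10, edgeR), while MT-CO1, named after its values were seen, had 2310 ± 230 CPM with ATRA and 2225 ± 364 CPM with DMSO (0.05 ± 0.14). Of the 5 tested genes listed as cytochrome c and other electron donors, 1 was higher at 120 h and 4 were lower. ETFB, the beta subunit of the electron transfer flavoprotein, was the higher one (2.41 ± 0.09). DHODH, which links pyrimidine synthesis to ubiquinone, was among the lower ones (-2.44 ± 0.09). Among 12 regulators 3 were higher and 9 lower at 120 h. TFAM, which packages mitochondrial DNA and was named after its values were seen, had 49.6 ± 2.82 CPM with ATRA and 107 ± 5.49 CPM with DMSO (-1.12 ± 0.10), the mitochondrial RNA polymerase POLRMT stood at -1.44 ± 0.10 and the coactivator PPRC1 at -1.25 ± 0.08. ESRRA, an orphan receptor that acts on respiratory genes, was higher (1.11 ± 0.07), with 315 ± 33.0 CPM with ATRA and 146 ± 5.69 CPM with DMSO. NRF1, the factor of the motif above and likewise named afterwards, stood at -0.35 ± 0.09.

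**Figure D4:**
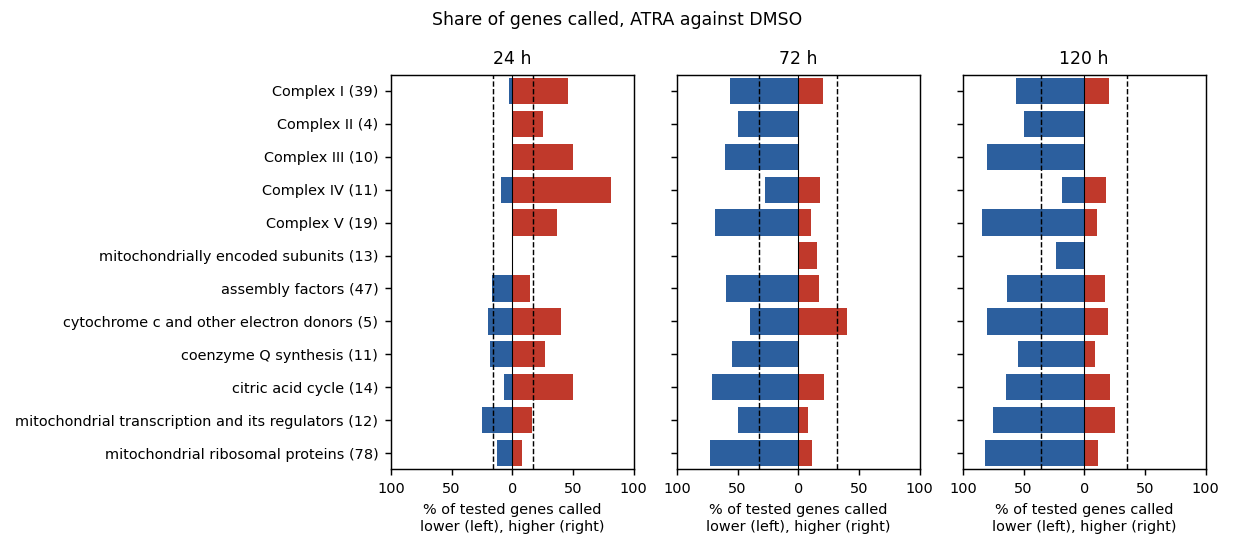
Share of tested genes (horizontal axis, percent; number tested in brackets) called lower (left, blue) and higher (right, red) with ATRA against DMSO at 24, 72 and 120 h, for each complex and for 7 further lists; dashed lines give the shares among all tested genes. At 120 h complexes III and V, the mitochondrial ribosomal proteins and the electron donors reach furthest to the left, and complex IV and the mitochondrially encoded subunits stay inside the dashed line.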

How the data were processed

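RNA-seq of NB4 cells was taken from 1 deposited table of fragment counts per gene for 33 libraries. The labels call the replicates biological triplicates. Each p-value sets a difference against the spread between replicates, pooled over the groups and moderated across genes. Per the submitters' processing notes, the tools were Trimmomatic 0.36, STAR 2.5.2b and Subread 1.5.1 on GRCh38. Per the file headers, featureCounts counted strand-specific fragments over exons of merged Ensembl and FANTOM CAT models, and a fragment overlapping several genes was counted in each. The kit was a stranded total RNA kit, per the labels' protocols.

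From the counts, genes were filtered with filterByExpr (minimum count 10), scaled with TMM and tested with edgeR 4.0.16 (quasi-likelihood, R 4.3.3) in 1 fit of 33 libraries with a mean per group, with Benjamini-Hochberg adjustment over 22971 genes and a threshold of 0.05. SE is the log2 change divided by the root of F. CPM values are TMM-scaled. DESeq2 1.42.0, RLE size factors, other filters, a replicate block, lane 3 alone and each library left out were alternatives. The fit was tested on simulated data. The depth per library was 18341456 to 33490654 counts. Members were named by rule: in each ATRA comparison the 3 called members of largest change in each direction (average log2 CPM of at least 1), the called member of smallest p per complex at 72 h and 120 h, complex II, CYC1, ATP5IF1, isoform pairs, and 2 uncalled members. The members and lists were chosen with earlier results of these data known. Promoter sequences are from RefSeq (GRCh38.p14). The results of 1 member of complex I are not reported here beyond its part in the counts and sums.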

Additional observations from a re-analysis of the deposited data

Results flagged for a closer look

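In 13 members ATRA libraries were called higher than DMSO libraries at 24 h and lower at 72 h, with the difference between the times itself called by edgeR. In complex I the difference, 72 h minus 24 h on the log2 scale, was -0.77 in NDUFV1, -0.73 in NDUFA7, -0.67 in NDUFS7, -0.56 in NDUFB10, -0.50 in NDUFB5 and -0.34 in NDUFB2. In complex III it was -0.79 in UQCRH and -0.69 in UQCRC2, and in complex IV -0.58 in COX6A1 and -0.40 in COX4I1. In complex V it was -0.61 in ATP5F1A, -0.60 in ATP5PO and -0.56 in ATP5MPL. Exons are shared with a neighbour in NDUFA7 (AC010323.1, with counts equal to 469.1% of its own), COX6A1 (AL021546.1, 69.5%), ATP5PO (AP000311.1, 77.9%) and NDUFB2 (ADCK2, 14.9%). AC010323.1 had 24129 unscaled counts with ATRA and 27371 with DMSO at 24 h, and 10499 and 23218 at 72 h. The part of shared fragments in these differences was not tested. Among the 13 members DMSO was called higher at 72 h than at 120 h in NDUFA7, NDUFS7, NDUFV1 and UQCRC2 (edgeR). It was called lower at 72 h in NDUFB2, NDUFB10 and ATP5F1A, and the rest were not called. NDUFS7 averaged 52.84 CPM with ATRA and 67.51 CPM with DMSO at 72 h, against 57.54 and 50.92 CPM with DMSO at 24 h and 120 h. Between 72 h and 120 h the called direction turned in 3 more members: the difference was 2.69 in NDUFA4L2, -0.57 in NDUFV3 and -0.55 in ATP5MC3. In these 3 members the DMSO level at 72 h also differed from those at 24 h and 120 h (edgeR). ATP5MC3 averaged 131.2 CPM with ATRA at 72 h and 116.4 CPM with DMSO at 72 h, against 187.2 and 168.4 CPM with DMSO at 24 h and 120 h. NDUFV3 averaged 58.13 CPM with ATRA at 72 h and 46.66 CPM with DMSO at 72 h, against 63.03 and 58.98 CPM with DMSO at 24 h and 120 h. With a control averaged from the 24 h and 120 h DMSO groups, NDUFA4L2 stood at 0.45 at 72 h.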

How the results depend on the processing

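At 24, 72 and 120 h the larger of the counts of called members (higher at 24 h, lower later) stayed within 1.5 times of its value under each alternative. With only genes of no count left out, 7 were higher at 120 h, 0 lower at 24 h, 7 effects rose between 12 h and 24 h and 0 between 24 h and 72 h, and in DMSO against untreated cells 1 was lower at 12 h, 1 lower at 24 h and 0 higher at 4 h. Within lane 3, 1 was lower at 24 h. DESeq2 gave 1 lower at 4 h, 1 effect fallen between 4 h and 12 h and 8 risen between 72 h and 120 h; RLE size factors gave 7 risen between 72 h and 120 h, 1 risen between 12 h and 24 h and a log2 ratio of summed level at 24 h of 0.14. Without mitochondrial and small RNA genes 1 was lower at 4 h. With a control averaged from the 24 h and 120 h DMSO groups 5 were higher at 72 h, and NDUFA4L2 reversed to 0.45. The cause was not tested.

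Leaving out 1 library gave, for ATRA against DMSO, 1 to 23 higher and 0 to 1 lower at 4 h, 6 to 9 and 3 to 8 at 12 h, 28 to 34 and 0 to 1 at 24 h, 8 to 13 and 41 to 49 at 72 h, and 6 to 19 and 46 to 56 at 120 h, with a median of -0.42 to -0.23 at 120 h. For DMSO against untreated cells it gave 0 to 2 higher and 23 to 55 lower at 4 h, 0 to 1 and 0 to 3 at 12 h, 0 to 4 lower at 24 h, 2 to 5 and 57 to 63 at 72 h, and 4 to 19 lower at 120 h. For DMSO it gave 6 to 9 higher and 46 to 54 lower between 24 h and 72 h, and 36 to 40 and 5 to 10 between 72 h and 120 h. For the difference of effects it gave 0 to 8 falls between 4 h and 12 h, 0 to 5 rises between 12 h and 24 h, 0 to 2 rises and 46 to 55 falls between 24 h and 72 h, and 4 to 11 rises and 21 to 30 falls between 72 h and 120 h.

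To look for pairing, each library's deviations from its group mean of log2 CPM were correlated between ATRA and DMSO libraries of the same time. Over 15 pairs of the same number the correlations were -0.0195 to 0.200 (median 0.0423). The median was -0.00998 over 30 pairs of differing number. The main fit did not pair libraries by number, and these values do not exclude a pairing. With the replicate block 8 members were higher at 4 h, 7 effects rose between 12 h and 24 h, and 9 were lower in DMSO at 12 h. Over all alternatives, 957 values of named members kept their direction and call, 81 lost the call and 1 reversed.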
